A study of Mus musculus with 2 samples.

Results

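The genes described here are 43 nuclear receptors and their coregulators measured in mouse liver upon fasting and upon feeding. They were chosen by name, as the receptors and cofactors outside the bile acid and thyroid hormone receptors, and not by their values; 32 are receptors and 11 are coregulators, out of 20652 genes that the array probes could be matched to. Each was read through its oligonucleotide probes, 68 in all, and is represented by its brightest probe.

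The fasting and the feeding group each consisted of livers from 3 male C57BL/6J mice, 8 to 12 weeks old and kept on chow, whose RNA was pooled before labelling. For the length of the fast the labels state 16 h in one field and 14 to 16 h, overnight, in another. The feeding group appears in one field as ad libitum-fed and in another as fasted mice that then ate; the time from the start of the meal to the collection of the liver was not given in the sources used here. No treatment, transgene or deletion is given for either group beyond the feeding state. Each pool was labelled with Cy3 alone and applied to 1 Agilent Whole Mouse Genome array, so there was no replicate array and no difference below carries a test or a p-value.

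Nuclear receptors are transcription factors whose ligand-binding domain is a switch. Many bind a hormone, a vitamin derivative, a fatty acid or a foreign chemical, and the bound ligand exchanges corepressor complexes, which carry histone deacetylase activity, for coactivators that open chromatin. In the liver PPARα drives fatty acid oxidation and ketogenesis during fasting, the glucocorticoid receptor drives gluconeogenic genes, PXR and CAR drive drug metabolism, and most partners in these pathways bind DNA as heterodimers with an RXR. The NR4A receptors differ in that they have no classical ligand and act mainly through how much of them is made, their genes being switched on within a short time by cyclic AMP.

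Before the values, promoters of members with a marked difference are shown beside those of related genes. RefSeq start sites on the assembly GRCm38.p6 were available for 38 of the 43 members, in 58 windows reaching from 250 bases before to 50 bases after a start. Ncoa2, Ncoa3, Nr3c1, Hnf4g and Hdac3 had no entry. The first set is the NR4A family, shown because Nr4a1 had the lowest change of all members. Of its relatives, Nr4a2 was dim and Nr4a3 was not detected on either array. Capitals mark the half-site of the cyclic AMP response element, TGACG, on either strand (CGTCA when read on the printed strand), and the sequences run 5′ to 3′ over the 250 bases before the start. They lie at chr15:101266596-101266845 (+ strand), chr2:57124004-57124253 (− strand) and chr4:48045055-48045304 (+ strand).
Nr4a1: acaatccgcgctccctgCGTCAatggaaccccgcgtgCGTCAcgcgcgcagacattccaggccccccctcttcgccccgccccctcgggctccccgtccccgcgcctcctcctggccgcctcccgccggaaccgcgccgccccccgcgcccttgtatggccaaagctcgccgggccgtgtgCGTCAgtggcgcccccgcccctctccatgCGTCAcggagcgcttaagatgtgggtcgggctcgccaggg
Nr4a2: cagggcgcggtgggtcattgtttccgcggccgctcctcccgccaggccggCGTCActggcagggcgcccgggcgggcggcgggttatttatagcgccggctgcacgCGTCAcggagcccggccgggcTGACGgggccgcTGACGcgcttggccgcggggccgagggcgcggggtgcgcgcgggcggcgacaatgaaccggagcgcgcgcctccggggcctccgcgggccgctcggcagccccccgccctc
Nr4a3: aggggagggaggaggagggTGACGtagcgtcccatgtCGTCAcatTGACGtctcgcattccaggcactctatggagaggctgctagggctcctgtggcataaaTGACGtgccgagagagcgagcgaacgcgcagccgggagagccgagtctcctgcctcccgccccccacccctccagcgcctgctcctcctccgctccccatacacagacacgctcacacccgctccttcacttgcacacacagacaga

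Each of the 3 promoters holds 4 half-sites. Of 32851 RefSeq promoters of the same length, 20.8% hold at least 1 and 76, or 0.231%, hold 4 or more. The full palindromic element, TGACGTCA, is in none of the 3 windows and in 1.79% of all promoters. The 76 promoters belong to 69 genes, of which 59 gave a change on the arrays. Of these 59, 1 was at least 2-fold higher and 6 were at least 2-fold lower upon feeding. Together these are 11.9%, with Nr4a1, which led to the motif, included, against 8.5% of all genes (3.53% higher, 4.97% lower). The median log2 change of the 59 was 0.05. The half-sites were thus found beside signals of either direction, with 31 of the 59 genes above 0.

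The second set is Rarb, the retinoic acid receptor β gene, with Cyp26a1, which encodes the enzyme that clears retinoic acid in the liver and is no member. It is shown because the change of Rarb was next in size to that of Esr1 among the higher receptors and because Cyp26a1 was the 1 gene of a retinoid list past 2-fold; the pair and the motif were chosen with these values known. Capitals mark a direct repeat on either strand, GTTCA followed by a spacer of 6 bases of any kind and GTTCA again. Retinoic acid receptors are known to bind direct repeats of half-sites of 6 bases, of which GTTCA is a part. The gap between full half-sites is therefore shorter than the spacer searched. The sequences lie at chr14:16575477-16575726 (− strand) and chr19:37697558-37697807 (+ strand).
Rarb: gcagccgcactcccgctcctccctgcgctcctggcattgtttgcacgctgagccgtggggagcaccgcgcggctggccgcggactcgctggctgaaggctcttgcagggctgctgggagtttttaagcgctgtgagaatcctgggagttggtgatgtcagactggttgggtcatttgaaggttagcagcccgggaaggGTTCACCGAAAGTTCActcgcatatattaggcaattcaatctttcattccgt
Cyp26a1: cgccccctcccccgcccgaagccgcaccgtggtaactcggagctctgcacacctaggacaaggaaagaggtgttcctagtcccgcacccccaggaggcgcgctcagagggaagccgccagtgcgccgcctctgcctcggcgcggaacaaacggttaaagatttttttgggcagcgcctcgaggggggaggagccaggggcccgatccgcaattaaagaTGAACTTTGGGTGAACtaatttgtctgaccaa

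In Rarb the repeat starts at base −52 from the start site, and in Cyp26a1 at base −32 on the opposite strand. Only 25 of the 32851 promoters (0.0761%) hold this arrangement. They belong to 24 genes, of which 8 gave a change. Of the 8, 6 were above 0, with a median log2 change of 0.26, against 7802 of 15198 genes and a median of 0.01. Rarb and Cyp26a1, whose values led to the motif, are counted among the 8, so the count is a description only. Cyp26a1 was past 2-fold, Rarb followed, and Lcorl, a transcriptional cofactor gene, had a log2 change of 0.64 (signal 441 to 688). The others, Dmd, Cfap45, Blvrb, Serpinf2 and Tnfsf13b, lay between −0.25 and 0.32. A match to these letters is a description of the sequence and not of a bound site.

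The values below are processed signals, which the scanner software had corrected for background, after quantile normalization of the pair of arrays. Every change is the log2 of feeding over fasting. The spot SD beside it is the SD of a difference between single replicate spots of similar brightness, and it covers measurement on the array only, not the spread between mice. Signals of different genes depend on their probes and were not compared with each other. Because the pools are whole liver, fewer cells of a type and less RNA per cell cannot be told apart. A probe counted as detected where the software called it well above background on at least 1 array.

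Across the 15198 genes with a change, 1292 (8.5%) differed by at least 2-fold, 537 (3.53%) being higher upon feeding and 755 (4.97%) lower, and 22.7% were past 1.5-fold. Of the 32 receptors, 30 were detected and 29 gave a change. Of these, 3 were past 2-fold: Esr1 was higher, and Nr4a1 and Vdr were lower. A further 8 lay between 1.5-fold and 2-fold, so that 11 of 29 (37.9%) were past 1.5-fold, 3 higher (11.3% of all genes) and 8 lower (11.4% of all genes). None of the 11 coregulators, all detected, was past 2-fold and 2 (18.2%) were past 1.5-fold. The median size of change regardless of direction was 0.54 over the receptors, 0.31 over the coregulators and 0.29 over all genes. With direction kept, the receptors were divided evenly, 15 above 0 and 14 below, with a median of 0.06, whereas 8 of the 11 coregulators were below 0, with a median of −0.20.

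Several of the receptors past 1.5-fold were dim, and the local background was 30 upon fasting against 22 upon feeding at the median spot. With another background correction, normexp, which adds an offset and draws dim values together, 8 of 30 receptors (26.7%) and 10.9% of all genes were past 1.5-fold. Among genes with a mean signal of at least 100, 6 of 21 receptors (28.6%) and 20.6% of all genes were.

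**Figure D1:**
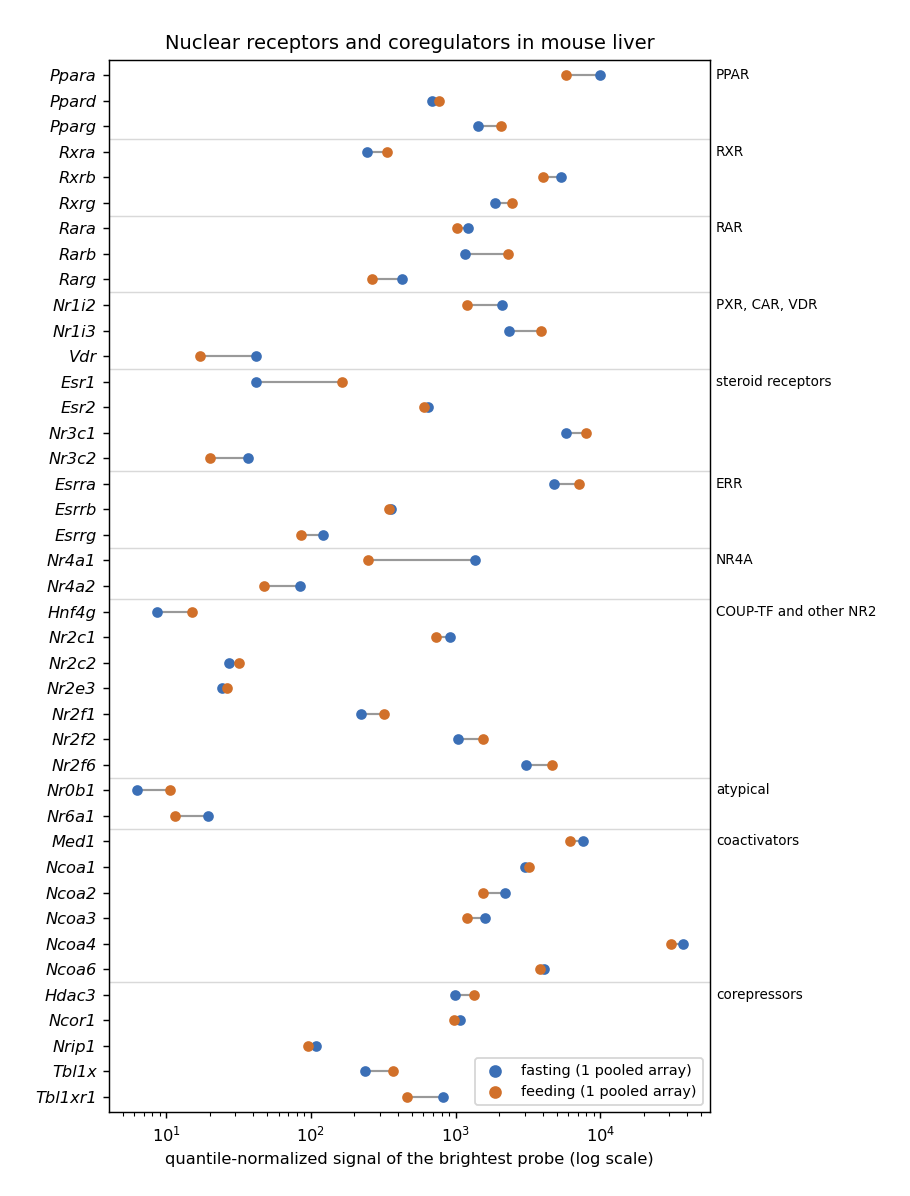
Quantile-normalized signal of the brightest probe of each member detected on at least 1 array, on a log axis, with 1 point for the fasting array (blue) and 1 for the feeding array (orange), grouped by receptor family and coregulator class. The widest gaps are those of Nr4a1, from 1367 upon fasting to 248 upon feeding, and Esr1, from 42.1 to 164.

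Among the PPARs, Ppara, the fatty acid sensor of the fasted liver, was lower upon feeding. Its brightest probe gave a signal of 9941 upon fasting and 5803 upon feeding, a log2 change of −0.78 (spot SD 0.08), or 1.71-fold higher upon fasting. The other Ppara probes moved in the same direction, from 963 to 655 and from 573 to 347, by −0.56 and −0.72. All 3 probes therefore placed Ppara lower upon feeding. Pparg, the adipogenic isotype that favours lipid storage, went the other way, with 1420 upon fasting and 2069 upon feeding and a change of 0.54 (spot SD 0.11). Its probe was printed in 10 spots on each array, and before normalization these ranged from 1022 to 1672 upon fasting and from 1871 to 2239 upon feeding, without overlap. Ppard, the widely expressed isotype, stood at 688 and 764, a change of 0.15.

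Lists of target genes, chosen with earlier results of these data known, were read beside the receptors. Of 25 PPARα targets, all detected, none was 2-fold higher and 7 were at least 2-fold lower upon feeding, against 4.97% of all genes, and 22 of 25 were below 0, with a median of −0.56. The lowest were Angptl4, an inhibitor of lipoprotein lipase (25430 to 2591, −3.29), and Pdk4, which restrains pyruvate dehydrogenase (4157 to 812, −2.36). Acot1, an acyl-CoA thioesterase (−1.33), Vnn1, a pantetheinase (−1.11), and Cpt1a, which admits fatty acids to mitochondria (−1.07), followed. Fgf21, a hormone of the fasted liver, lay at the threshold, from 175 to 87.3 (just past 2-fold lower, but −0.43 with normexp). Cyp4a10 and Cyp4a14, fatty acid hydroxylases often used as PPARα readouts, were near equal on both arrays, at 112604 and 112912 and at 74091 and 73731. Of 8 PPARγ targets 7 were detected and 5 of these were below 0 (median −0.49), with Plin4, a lipid droplet coat protein, past 2-fold (1341 to 519, −1.37).

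The RXRs, the shared partners of these receptors, did not move as 1 group. Rxrb was lower, from 5355 to 4048 (−0.40, spot SD 0.08). Rxra, the main hepatic isotype, had probes in opposite directions, from 246 to 339 (0.46) and from 309 to 245 (−0.33), so that no direction is given for it. Both Rxrg probes were higher upon feeding but by unlike amounts: the brighter went from 1883 to 2475 (0.39, spot SD 0.10) and the dimmer from 239 to 801 (1.75, and 1.41 with normexp).

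Among the retinoic acid receptors, Rarb was nearly 2-fold higher upon feeding. The signal was 1159 upon fasting and 2298 upon feeding, a change of 0.99 (spot SD 0.11), with a second probe at 120 and 213 (0.83). Scaling the arrays by their 75th percentile or their median placed it just past 2-fold, at 1.04 and 1.16, and normexp placed it at 0.87. Over all genes 3.68% had a higher change. Rarg, by contrast, was lower, from 427 to 265 (−0.69, spot SD 0.13). Rara had probes in opposite directions, from 1216 to 1021 (−0.25) and from 766 to 935 (0.29).

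The handling genes of retinoids and vitamin D did not move together. Of 17 genes in that list 16 were detected and 15 gave a change, with a median of 0.06 and 1 gene past 2-fold higher, against 3.53% of all genes. That gene was Cyp26a1, whose promoter is shown above, with a signal of 9631 upon fasting and 28621 upon feeding and a change of 1.57. Tgm2, a transglutaminase induced by retinoic acid, was next, from 16149 to 30087 (0.90). Cyp26b1, a second retinoic acid hydroxylase, went from 2823 to 1991 (−0.50). Rbp4, Rdh10, Lrat and Aldh1a1, which carry, oxidise or store retinoids, lay between −0.07 and 0.24.

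PXR and CAR, the xenobiotic receptors encoded by Nr1i2 and Nr1i3, differed in opposite directions. Nr1i2 was lower upon feeding, from 2080 to 1191, a change of −0.80 (spot SD 0.11). Nr1i3 was higher, from 2340 to 3875, a change of 0.73 (spot SD 0.08), and its other probe went the same way, from 1223 to 1915 (0.65). Both changes were far larger than the spread between spots and kept their direction under each background correction and scaling run. Of 22 targets of CAR and PXR, 19 had a probe and were detected, none was 2-fold higher and 1 was 2-fold lower (Gadd45b, a stress response gene, 824 to 396, −1.06; 4.97% of all genes were 2-fold lower), with a median of −0.17. At 1.5-fold 6 of the 19 were lower (11.4% of all genes) and none was higher, and 14 were below 0. Besides Gadd45b these were Slco1a4 (−0.81), an organic anion importer, Abcc3 (−0.74), an exporter, Cyp1a2 (−0.70) and Cyp2b9 (−0.68), cytochromes P450, and Por (−0.62), their electron donor. Of the classical readouts, Cyp2b10 for CAR went from 50937 to 42403 (−0.26) and Cyp3a11 for PXR from 111963 to 111216 (−0.01).

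Vdr, the vitamin D receptor, was past 2-fold lower, from 41.7 to 17.1, but at signals close to background. The change was −1.28 with a spot SD of 0.41, and −0.23 with normexp. Nonparenchymal cells are the known site of Vdr in liver, and the summed signals of their marker lists did not all go 1 way. Those of stellate cells, macrophages and endothelial cells were lower upon feeding, though not for every marker. That of the cholangiocyte markers was higher (1.23 times). The summed signal of 7 stellate cell markers, all detected, went from 54831 to 39563 (0.722 times); 4 of the 6 with a change were below 0, Dcn, Col1a1, Col3a1 and Reln, while Lrat (0.24) and Ngfr (0.31) were above. That of the 6 Kupffer cell and macrophage markers with a probe went from 77237 to 58744 (0.761 times), with 5 below 0 and Marco above (0.20). All 7 endothelial markers were below 0, and their sum went from 42369 to 32944 (0.778 times). For 7 hepatocyte markers the sum went from 657573 to 567086 (0.862 times). Much of that fall was in Tat, which went from 104878 to 53470 and is also in the list of glucocorticoid receptor targets. The median log2 change of the 7 was −0.07, with 6 below 0 and 1 above. The part of these cells in the lower Vdr signal was not tested.

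The remaining marker lists were small in signal or mixed. The 6 lymphocyte markers summed to 0.773 times the fasting value, and the 5 cholangiocyte markers to 1.23 times, where Sox9 was the gene that was higher past 2-fold (377 to 1625, 2.11). Acinar cell markers summed to 128 and 143, with Pnlip not detected, and of the adipocyte markers Adipoq and Lep were not detected on either array. All 7 hepatocyte markers were well above background on both arrays.

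Among the steroid receptors, Esr1, oestrogen receptor α, had the highest change of all members but its probes disagreed. The brightest probe gave 42.1 upon fasting and 164 upon feeding, a change of 1.96 (spot SD 0.21), or 3.89-fold, and 0.92 with normexp. Its fasting signal was close to background, and the local background there was 49 against 23 upon feeding. Over all genes 0.546% had a higher change. A second probe went from 44.1 to 31.9 (−0.46), and the remaining one, printed in 10 spots, from 23.0 to 30.2 (0.40). The mean over the probes was 0.63. The 2-fold call for Esr1 therefore rests on 1 of 3 probes. Esr2, oestrogen receptor β, was near equal at 645 and 602 (−0.10).

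Nr3c1, the glucocorticoid receptor, was moderately higher upon feeding by its bright probe, from 5761 to 8035 (0.48, spot SD 0.08). A much dimmer probe went from 165 to 123 (−0.43). Nr3c2, the mineralocorticoid receptor, was dim, at 36.7 and 20.0, with a change of −0.88 (spot SD 0.41) and of −0.20 with normexp. Pgr, the progesterone receptor, was not detected on either array by either of its probes.

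The glucocorticoid receptor targets listed here, picked with their changes known, had far larger changes than the receptor's own signal, and opposite to its bright probe. Of 15 targets, all detected, none was 2-fold higher and 11 were at least 2-fold lower upon feeding, against 4.97% of all genes, with a median of −1.72. This list was written knowing which genes changed most in these data, so its count and median are a description of those genes only. Igfbp1, an insulin-like growth factor binding protein, went from 96453 to 4811 (−4.33), and Zbtb16, a zinc finger repressor, from 855 to 79.4 (−3.43). Klf9 (−3.27) and Per1 (−1.95), transcription factor and clock genes, and Pck1, which commits carbon to gluconeogenesis (96237 to 12469, −2.95), were also lower. Many of these genes also respond to insulin, glucagon or cyclic AMP. Sult1e1, oestrogen sulfotransferase, was the highest of the list, at 0.81.

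**Figure D2:**
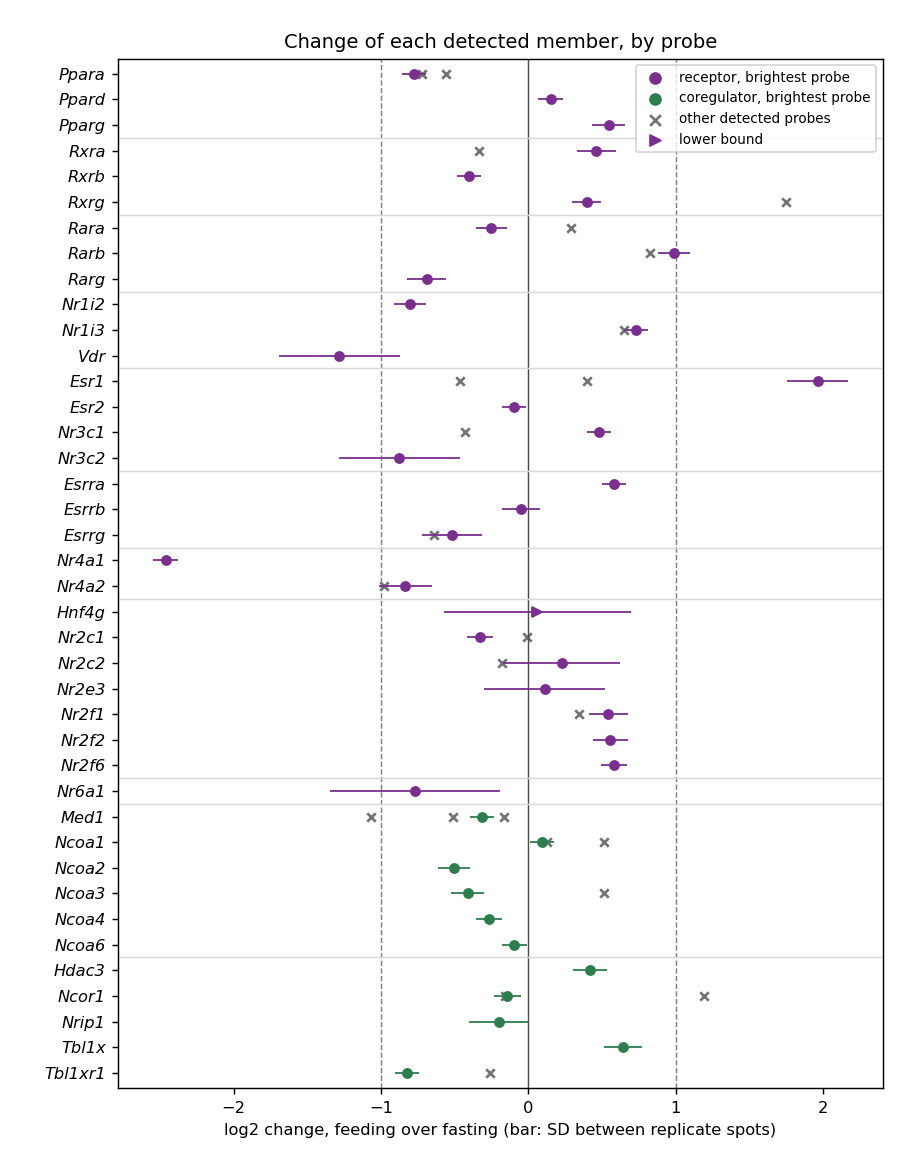
Log2 change, feeding over fasting, of each detected member; circles are the brightest probe (receptors purple, coregulators green), crosses the gene's other detected probes, the triangle a lower bound, bars the SD of a difference between single replicate spots and dashed lines 2-fold. Nr4a1 stands at −2.46 with a bar of 0.09, while Esr1, Rxrg, Ncor1 and Med1 have probes on either side of a 2-fold line.

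The oestrogen-related receptors, which sustain mitochondrial genes together with PGC-1α, split by member. Esrra was higher upon feeding, from 4788 to 7163 (0.58, spot SD 0.08). Esrrb was near equal, at 357 and 345 (−0.05). Esrrg was lower by both probes, from 122 to 85.1 (−0.52, spot SD 0.20) and from 90.6 to 58.1 (−0.64), and at −0.27 and −0.23 with normexp.

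Nr4a1, also called Nur77, was the member with the largest difference, read by 1 probe in 1 spot on each array. The spot SD given for it therefore comes from other probes of similar brightness. Its signal was 1367 upon fasting and 248 upon feeding, a change of −2.46 (spot SD 0.09), or 5.51-fold higher upon fasting; it ranked 77 from the lowest among the 15198 changes. It stayed past 2-fold with normexp (−1.99), unlike Vdr and Esr1. Nr4a2 had the same direction at dim signals, from 84.0 to 47.1 (−0.84, spot SD 0.18, −0.33 with normexp) and from 26.1 to 13.2 by a second probe (−0.98). Nr4a3 was not detected on either array, although its probe was printed in 10 spots.

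Other immediate early genes were read beside Nr4a1, since all of them are induced fast by signals at the cell surface. Their list, too, was chosen with earlier results of these data known. Of 12 such genes 11 were detected, 7 were at least 2-fold lower upon feeding, against 4.97% of all genes, and none was 2-fold higher, with a median of −1.16. Dusp1, a MAP kinase phosphatase that is also in the glucocorticoid list, went from 8766 to 2055 (−2.09), and Fos from 729 to 176 (−2.05). Btg2, an antiproliferative gene, had a change of −1.74 and Zfp36, an mRNA decay factor, of −1.48. Ier2 (38.8 to 15.9, −1.29) and Egr2 (187 to 83.5, −1.16) were lower at dim signals. The family did not move as a whole: Egr1 (2193 to 3679, 0.75) and Atf3 (0.50) were higher upon feeding. With normexp 4 of the 11 were past 2-fold and the median was −0.59.

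The COUP-TF receptors, which compete with other receptors for DNA sites, were all higher upon feeding by similar amounts. Nr2f1 went from 221 to 322 (0.54, spot SD 0.13) with a second probe at 0.34. Nr2f2 went from 1047 to 1540 (0.56, spot SD 0.12), and Nr2f6 from 3089 to 4621 (0.58, spot SD 0.09). None of the 3 reached 1.5-fold, yet each change was several times the spread between spots.

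The testicular receptors and the remaining members of that subfamily were lower in signal or near equal. Nr2c1, or TR2, went from 917 to 731 (−0.33), with a second probe at −0.01. Nr2c2, or TR4, was dim, at 27.4 and 32.0 (0.22, spot SD 0.39), as was Nr2e3, a photoreceptor regulator, at 24.4 and 26.3 (0.11, spot SD 0.41). Hnf4g, a relative of the hepatocyte factor Hnf4a, was well above background upon feeding alone, at 15.1 against 8.67, and its log2 change is at least 0.06.

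Nr6a1, the germ cell nuclear factor, was dim as well, at 19.6 and 11.5, with a change of −0.77 (spot SD 0.58) and −0.08 with normexp. Nr0b1, or DAX-1, which lacks the usual DNA-binding domain, was called above background upon feeding only, at 10.6 against 6.23, too close to background for a fold. The spot SD exceeded the change for Nr2c2 and Nr2e3, and for Nr6a1 it was smaller than the change. For Hnf4g the spot SD of 0.63 exceeded the lower bound. It was smaller than the measured difference of 0.80, whose fasting signal was not well above background.

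For reference, a list of 17 other nuclear receptors had 16 detected and 14 with a change, with 1 past 2-fold lower, Nr1d2, the clock repressor REV-ERBβ (3355 to 1622, −1.05). Their median was 0.08, close to the 0.06 of the receptors described here.

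The coregulators moved less than the receptors. Of the p160 coactivators, which bring histone acetyltransferases to receptors, Ncoa1 stood at 3014 and 3213 (0.09), with other probes at 0.51 and 0.13. Ncoa2 was lower, from 2205 to 1552 (−0.51, spot SD 0.11). Ncoa3 had a bright probe from 1588 to 1195 (−0.41) and a dim one from 57.2 to 81.7 (0.51), in opposite directions.

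Ncoa4, which also carries ferritin to lysosomes, went from 37064 to 30799 (−0.27, spot SD 0.09). Ncoa6 was near equal at 4113 and 3851 (−0.10). Med1, the Mediator subunit that docks on liganded receptors, was lower by all 4 of its probes: from 7638 to 6150 by the brightest (−0.31, spot SD 0.08), and by −0.51, −0.17 and −1.07 by the others, the last of these at signals of 24.6 and 11.7.

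The corepressor complex held both coregulators past 1.5-fold, in opposite directions. Tbl1x, which with its homologue helps to exchange corepressors for coactivators, was higher upon feeding, from 238 to 371 (0.64, spot SD 0.13). Its homologue Tbl1xr1 was lower, from 820 to 463 (−0.82, spot SD 0.08), with a second probe from 144 to 120 (−0.26). With normexp, Tbl1xr1 stayed past 1.5-fold at −0.69 and Tbl1x did not, at 0.41.

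Hdac3, the deacetylase of the complex, was higher, from 998 to 1332 (0.42, spot SD 0.11). Ncor1, its scaffold, was near equal by 2 probes, from 1073 to 971 (−0.14) and from 372 to 333 (−0.16), while another went from 224 to 513 (1.19). Nrip1, or RIP140, a repressor of oxidative genes, stood at 109 and 95.2 (−0.20, spot SD 0.20), a difference no larger than the spread between spots.

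A list of 27 other coregulators, all detected, had 1 gene past 2-fold higher (3.53% of all genes) and 4 past 2-fold lower (4.97% of all genes), with a median of −0.05. Ppargc1a, which encodes PGC-1α, the coactivator of PPARα and the oestrogen-related receptors in fasting, went from 1400 to 146 (−3.26). Its relative Ppargc1b went from 124 to 40.3 (−1.62), Med13 from 95.0 to 31.5 (−1.59), and Ncoa7, not well above background upon feeding, was lower by at least 1.77 on the log2 scale. With normexp the last 3 had changes of −0.65, −0.48 and −0.17. Prmt1, an arginine methyltransferase, was the higher gene, from 749 to 1698 (1.18). Among these cofactors Ppargc1a thus had the largest difference, whereas none of the 11 listed as members reached 2-fold.

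**Figure D3:**
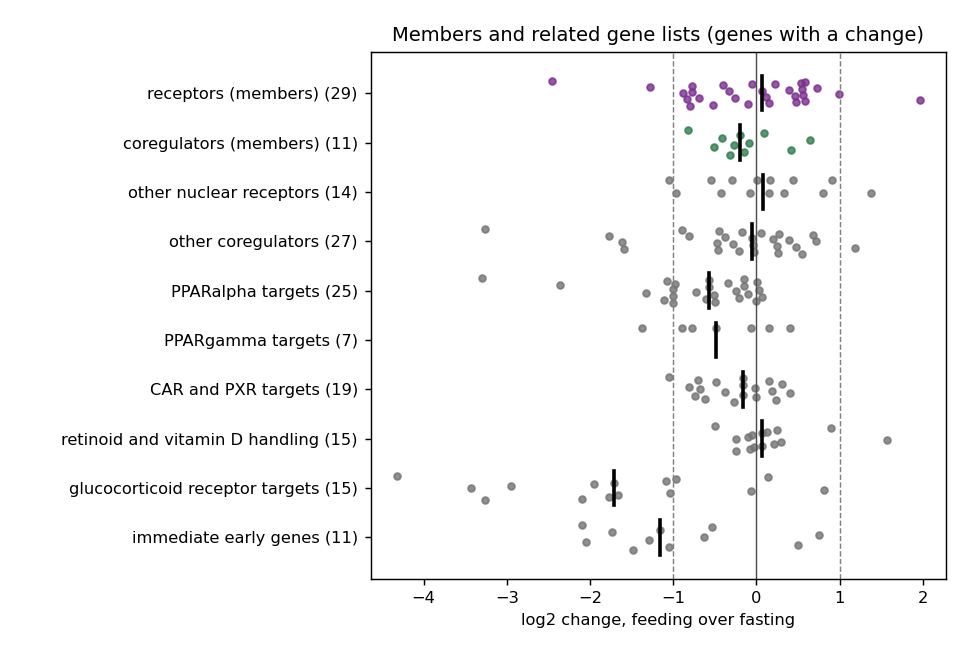
Log2 change, feeding over fasting, of every gene with a change in the receptors, the coregulators and 8 related gene lists; each point is 1 gene, the black line is the median of the list and dashed lines are 2-fold. The receptors and coregulators lie around 0, with medians of 0.06 and −0.20, while the glucocorticoid receptor targets and immediate early genes lie lower, with medians of −1.72 and −1.16. The lists were chosen with earlier results of these data known, the glucocorticoid list knowing which genes changed most, so the contrast is a description only.

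**Figure D4:**
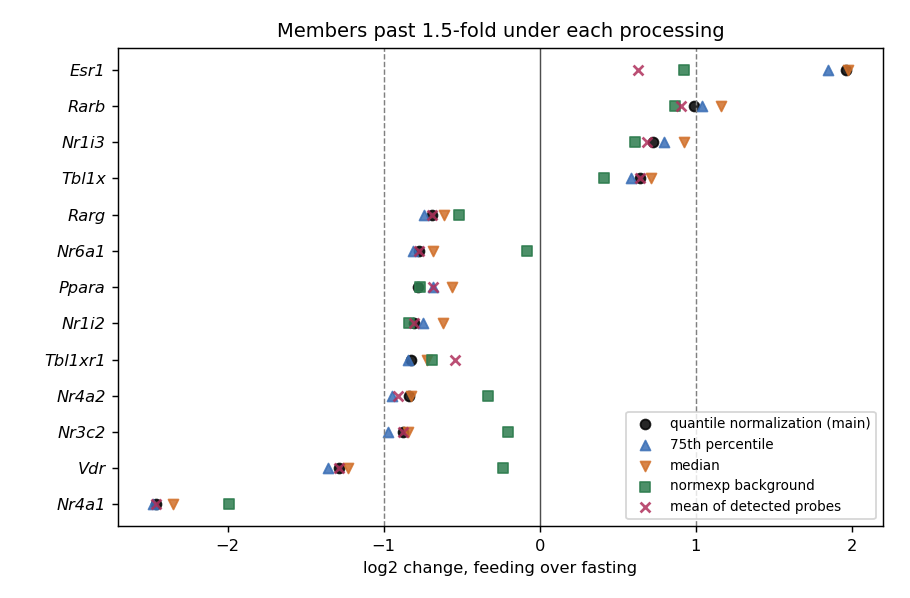
Log2 change of the 13 members past 1.5-fold under quantile normalization (black), scaling by the 75th percentile (blue) or the median (orange), normexp background correction (green) and the mean of the detected probes (crosses). The normexp values of Vdr, Nr3c2, Nr4a2 and Nr6a1 lie between −0.33 and −0.08, while those of Ppara, Nr1i2 and Rarb are −0.77, −0.83 and 0.87.

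All 13 members past 1.5-fold kept their direction under the settings plotted. Normexp brought Vdr, Nr3c2, Nr4a2 and Nr6a1, the dim receptors, closest to 0, and the mean over probes brought Esr1 from 1.96 to 0.63 and Tbl1xr1 from −0.82 to −0.54.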

How the data were processed

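Total RNA of 2 pools, each of 3 male mouse livers, was labelled with Cy3 (Quick Amp) and hybridised by the authors to Agilent Whole Mouse Genome arrays; spots were read with Feature Extraction 11.0.1.1. The deposited values are intensities per spot, and the processed signal used here had been background subtracted by that software but not normalized between arrays. The deposited value table holds, in 44397 of 44397 spots of each array, the mean local background intensity of the spot, and was not used as expression. From these intensities, control spots and outlier spots (123 upon fasting, 98 upon feeding) were dropped, log2 processed signals of the same probe were averaged, and quantile normalization between the arrays followed, the authors' own choice. There were 43020 spots for transcripts on each array, none saturated, of which 63.1% and 72.3% were well above background; the median processed signal was 61.5 and 52.8. With 1 array per group no test was possible, and precision is limited by the number of arrays.

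Probes were named through their RefSeq transcripts (GRCm38.p6 table; 27218 of 39402 matched). Probe coordinates are not given, because the assembly of the array design is an older one. Each gene was read by its brightest probe, and 16342 genes were detected. For probes well above background on only 1 of the arrays, the change is a lower bound against the higher of its own signal and the lowest signal well above background; no fold is given where that ratio is under 1. The spot SD came from the 40 probes nearest in signal among 399 probes with 10 spots. Promoter sequences are from RefSeq, and motifs were searched on both strands of 300 bases.

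All 43 members are named, and of each list the genes past 2-fold, at most 6. Sult1e1, Egr1, Atf3, Tgm2, Cyp26b1, Cyp4a10, Cyp4a14, Cyp2b10, Cyp3a11, Slco1a4, Abcc3, Cyp1a2, Cyp2b9, Por, Dcn, Col1a1, Col3a1, Reln, Ngfr, Marco, Rbp4, Rdh10, Lrat, Aldh1a1, Sox9, Tat and the genes with the GTTCA repeat were chosen after their values were seen. Some genes that this rule names are not reported here. The members and lists were chosen with earlier results of these data known. Alternatives used limma 3.58.1 (R 4.3.3) for normexp with an offset of 50 on median signals; other steps used Python 3.11.15. The calls were tested on simulated data in which genes were changed by known amounts, with noise between spots only: 66 of 66 genes changed 2.5-fold, 67 of 67 changed 4-fold and 3 of 67 changed 1.5-fold were called past 2-fold in the right direction, and 133 of 15203 unchanged genes were called.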

Additional observations from a re-analysis of the deposited data

How the results depend on the processing

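The number of receptors past 2-fold, 3 in the report, was 1 with normexp (Nr4a1), 1 among receptors with a mean signal of at least 100 (an alternative chosen after seeing the data) and 11 at 1.5-fold. It was 4 under scaling by the 75th percentile or the median, with Rarb added, and 2 at 3-fold. With the mean of the probes it was again 3, but Esr1 fell below the threshold (0.63) and Rxrg passed it (1.07). The number of coregulators past 2-fold was 0 in every setting except at 1.5-fold, where it was 2, and the median of the coregulators, −0.20, became −0.0805 under scaling by the median and −0.10 with the mean of the probes. Scaling by the median moved the median of all genes from 0.01 to 0.13. Member values under it were higher by unlike amounts: Ppara went from −0.78 to −0.56 and Esr1 from 1.96 to 1.98. Over all genes 1292 were past 2-fold (537 higher, 755 lower), 1365 under scaling by the median (717 higher, 648 lower), 1310 by the 75th percentile (508 higher, 802 lower) and 527 with normexp (215 higher, 312 lower). Of 40 member changes, 16 moved by more than the spread between spots with normexp, 25 under scaling by the median, 3 under the 75th percentile and 12 with the mean of the probes. The sign of changes near 0 or with opposed probes turned for Rara, Ncoa3 and Ncor1 (mean of the probes, to 0.02, 0.05 and 0.30), Ncoa6 (normexp, 0.01), and Esr2, Esrrb, Ncoa6 and Ncor1 (scaling by the median, 0.01, 0.03, 0.12 and 0.00). Naming probes by a gene name column was not run, since the columns used here hold none. Dim signals limit Vdr, Nr3c2, Nr6a1, Nr2c2, Nr2e3 and Hnf4g, and also Esr1. No paired analysis was possible because each group was 1 pooled array.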
